A study of Mus musculus with 6 samples.

Results

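The genes described here are the IL-6 family cytokines and receptors that TSLP-producing stromal cells of the mouse intestine and their neighbors transcribe. The members are a fixed set of named genes of the family, and all 9 were found among the 33697 genes counted. Of these, 4 encode ligands (Il6, Lif, Il11 and Clcf1) and 5 encode receptor subunits (Il6st, Il6ra, Osmr, Lifr and Il11ra1). The cells came from adult Flare-TSLP mice on the C57BL/6 background, in which an internal ribosome entry site and tdTomato follow the coding sequence of the Tslp locus and loxP sites flank part of it. The line descends from 1 targeted embryonic stem cell clone. The paper states that its pooled experiments used both sexes, and it describes no treatment of the sequenced mice. No library of reporter-negative cells or of mice without the allele is compared here. Live tdTomato+ cells of the lamina propria were sorted, tagged with barcoded antibodies to H-2 and CD45 and captured in droplets, which gave 2 libraries from the proximal small intestine (pSI), 2 from the distal small intestine (dSI) and 1 each from cecum and large intestine (LI). Cells of several mice were pooled in a library, and no table used here pairs the hashtags with mice, so each library was 1 sample and p-values measure only the spread between libraries, which may be technical.

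Cytokines of this family signal through shared receptor chains. IL-6, IL-11, LIF, oncostatin M and cardiotrophin-like cytokine (Clcf1) all use gp130, the product of Il6st, together with a more specific subunit, and the complex activates JAK kinases and the transcription factor STAT3. IL-6 and IL-11 use Il6ra and Il11ra1 with gp130, LIF uses Lifr with gp130, and oncostatin M uses Osmr with gp130. Stromal cells of the gut are known sources of IL-6, IL-11 and LIF, and enzymatic dissociation of tissue is known to induce immediate early genes such as Fos, Jun and Egr1 in the cells that are released. Il6 and Lif are among the genes that can follow them, so each level is also given by the sum of Fos, Jun and Egr1 UMIs of the cell.

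On the GRCm39 build with GENCODE vM39 annotation, Il6 lies at chr5:30218112-30224979 on the plus strand, Lif at chr11:4207557-4222514 on the plus strand, Il11 at chr7:4775372-4785858 on the minus strand and Clcf1 at chr19:4264292-4273546 on the plus strand. The receptor genes lie at chr13:112600604-112646620 (Il6st, plus), chr3:89771366-89820719 (Il6ra, minus), chr15:6843053-6904450 (Osmr, minus), chr15:7120095-7226970 (Lifr, plus) and chr4:41699989-41769485 (Il11ra1, plus). All 9 are protein-coding. Il11ra1 overlaps Galt on the same strand, and both were counted, while the near-identical copy Il11ra2 was counted separately, so the split of reads between these genes is uncertain.

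Because the comparisons below turn on Il6 and Lif in cells with many or few immediate early transcripts, the 250 bases before the RefSeq start of both genes (GRCm38.p6, plus strand, chr5:30012864-30013113 and chr11:4257318-4257567) are shown, with the letters TGANTCA, the core that AP-1 dimers of Fos and Jun bind, in capitals.
Il6: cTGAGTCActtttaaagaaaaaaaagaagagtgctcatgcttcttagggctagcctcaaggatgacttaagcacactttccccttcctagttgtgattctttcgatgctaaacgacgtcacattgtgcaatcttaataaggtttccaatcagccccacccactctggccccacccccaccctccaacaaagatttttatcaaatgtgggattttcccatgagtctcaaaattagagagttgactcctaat
Lif: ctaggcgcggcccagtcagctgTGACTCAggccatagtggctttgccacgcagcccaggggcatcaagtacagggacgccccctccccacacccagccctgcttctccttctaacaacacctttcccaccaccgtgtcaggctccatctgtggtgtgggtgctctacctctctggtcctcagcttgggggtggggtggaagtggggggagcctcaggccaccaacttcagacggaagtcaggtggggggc
The match opens the Il6 stretch and lies 228 bases before the start in Lif. RefSeq windows of 300 bases (250 before and 50 after the start) were at hand for 8 of the 9 members, 11 windows in all. The letters also occurred in 1 of the 2 Il11 windows and in the Osmr window, and in 2565 of all 32851 windows (7.81%). An EGR motif (GCGNGGGCG, both strands, 5.55% of all windows) was found in 1 of the 2 Lifr windows, and a STAT motif (TTCNNNGAA, 8.30% of all windows) in no member window. The AP-1 and STAT letters read the same on both strands. A match describes the letters only.

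Cells were assigned to classes from fixed marker genes, none of them a member. The libraries held 109675337 to 206827504 UMIs, and 11219 to 19005 cells each were left after filters and doublet removal. Over all barcodes a library held 301 to 1081 tdTomato UMIs, too few to tell from the transcript which cells carried the reporter. Pairs of libraries shared at most 0.609% of the barcodes of the smaller one. Trophocyte-like fibroblasts, the Grem1+ stromal cells known for feeding the crypt niche, were the largest class in the small intestine (6989 to 15631 cells per library), followed in most libraries by lymphatic endothelial (LEC)-like cells (789 to 6122) and subepithelial myofibroblast (SEMF)-like cells (597 to 1536). Blood endothelial-like cells were fewer (180 to 542), and fibroblasts that met no subclass gate are called other fibroblasts. The cecum and LI held 222 and 254 LEC-like cells, and 32.8% and 32.1% of their fibroblasts lay within one gate width of another subclass, against 4.28% to 9.30% in the small intestine. Summed over its list, the LEC-like class held 16560 to 23197 CPM of LEC markers with all 6 markers detected in every library. The gate used these same markers, so their level describes the gate and is no separate test of the class. Levels are in CPM, the UMIs of a gene for every 1000000 UMIs that a class had in a library, intervals are exact 95% Poisson intervals for counting error only, and means are over the 4 small intestinal libraries with their SD.

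Il6, the founding cytokine of the family, was highest in trophocyte-like cells among the 5 classes that every small intestinal library held. Trophocyte-like cells held 24.8 and 32.3 CPM in the 2 pSI libraries, 29.8 and 24.3 in the 2 dSI libraries, 90.4 in the cecum and 10.3 in LI. SEMF-like cells held 1.33, 0.463, 0.217 and 0.469 CPM in the same small intestinal libraries, 4.43 in the cecum and 0.733 in LI, which rest on 1 to 59 UMIs. LEC-like cells held 1.16, 1.25, 2.70 and 2.35 CPM, with 15.4 in the cecum (18 UMIs) and 0.467 in LI (1 UMI). The trophocyte-like and SEMF-like ranges did not overlap in the small intestine, and within every library the trophocyte-like level was the higher one. Universal fibroblast-like cells, the Pi16+ cells of adventitial layers, held 30.3 to 33.7 CPM in 3 small intestinal libraries, 99.2 in the cecum and 16.8 in LI, where trophocyte-like cells held 10.3. Cxcl10 Ccl2 fibroblasts held 16.3 ± 9.21 CPM in 3 small intestinal libraries, 111 in the cecum (411 UMIs) and 8.14 in LI. Blood endothelial-like cells held 9.94 ± 2.11 CPM (SD, n = 4). Pericyte-like cells held 59.3 in dSI replicate 2 (50 cells, 18 UMIs, interval 35.1 to 93.7) and 28.8 in LI (122 cells, 23 UMIs, interval 18.3 to 43.2). The free RNA of the small intestinal libraries carried 14.9 to 30.3 CPM of Il6, and with a fixed 10% of each class's UMIs subtracted as free RNA the mean level was 28.6 CPM in trophocyte-like, 0.233 in LEC-like and 0 in SEMF-like cells (n = 4 each). An Il6 UMI was detected in 5.25% to 7.11% of trophocyte-like cells in the small intestine, a share of cells with a UMI and not of cells that express the gene, at median depths of 7611 to 9979 UMIs per cell, against 0% to 1.61% of T cell or ILC-like cells at 4448 to 5298. With every cell thinned to 2500 UMIs these shares were 2.69% to 3.83% in trophocyte-like cells, 0% to 0.195% in SEMF-like cells and 0% in T cell or ILC-like cells.

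Lif, a cytokine that acts on epithelial stem cells and neurons among others, was higher in LEC-like cells than in the other 4 classes that every small intestinal library held. They held 16.0 and 18.5 CPM in pSI and 10.8 and 13.9 in dSI, on 56 to 770 UMIs. Trophocyte-like cells held 9.32 and 7.85 CPM in pSI and 5.88 and 6.31 in dSI, all below every LEC-like value. In the cecum and LI the LEC-like values were the lower ones, with 5.15 and 3.74 CPM (6 and 8 UMIs) against 7.90 and 7.03 in trophocyte-like cells. The intervals overlapped in the cecum (1.89 to 11.2 against 6.65 to 9.32) and in LI (1.61 to 7.36 against 5.79 to 8.46). These counts therefore do not settle the order there. SEMF-like cells held 1.31 ± 0.463 CPM (SD, n = 4), and blood endothelial-like cells of the small intestine had at most 2 Lif UMIs in any library (0.316 ± 0.381 CPM), so the 2 endothelial classes differed by more than their ranges. Universal fibroblast-like cells, present in 3 small intestinal libraries, held 20.7, 11.2 and 12.3 CPM (7 to 20 UMIs) and overlapped the LEC-like values.

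Il11 and Clcf1 were scarce. Trophocyte-like cells held 1.98, 3.26, 2.08 and 2.61 CPM of Il11, a cytokine linked to fibroblast activation and tissue repair, on 158 to 259 UMIs per library. SEMF-like cells held 0.667, 0.752, 0.433 and 1.25 CPM in the small intestine but 4.05 in the cecum (54 UMIs) and 5.75 in LI (102 UMIs). The highest well-counted value was that of the 1394 telocyte-like cells of LI, with 12.96 CPM (183 UMIs, interval 11.1 to 15.0). Clcf1, a ligand of the ciliary neurotrophic factor receptor, stood at 1.68 ± 0.443 CPM in trophocyte-like, 1.21 ± 0.469 in SEMF-like and 0.854 ± 0.269 in LEC-like cells (SD, n = 4 each). It was higher in some small classes, with 10.8, 14.8 and 31.7 CPM in T cell or ILC-like cells (5, 9 and 10 UMIs), 10.3 to 24.2 in B cell-like cells (4 to 8 UMIs) and 7.19 and 13.8 in Ptn Scg2 fibroblasts (10 and 9 UMIs). These classes overlapped, and their counts are too small to order them. Across 5 classes of the small intestine, each class overlapped its neighbor in the order of Clcf1 levels.

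**Figure D1:**
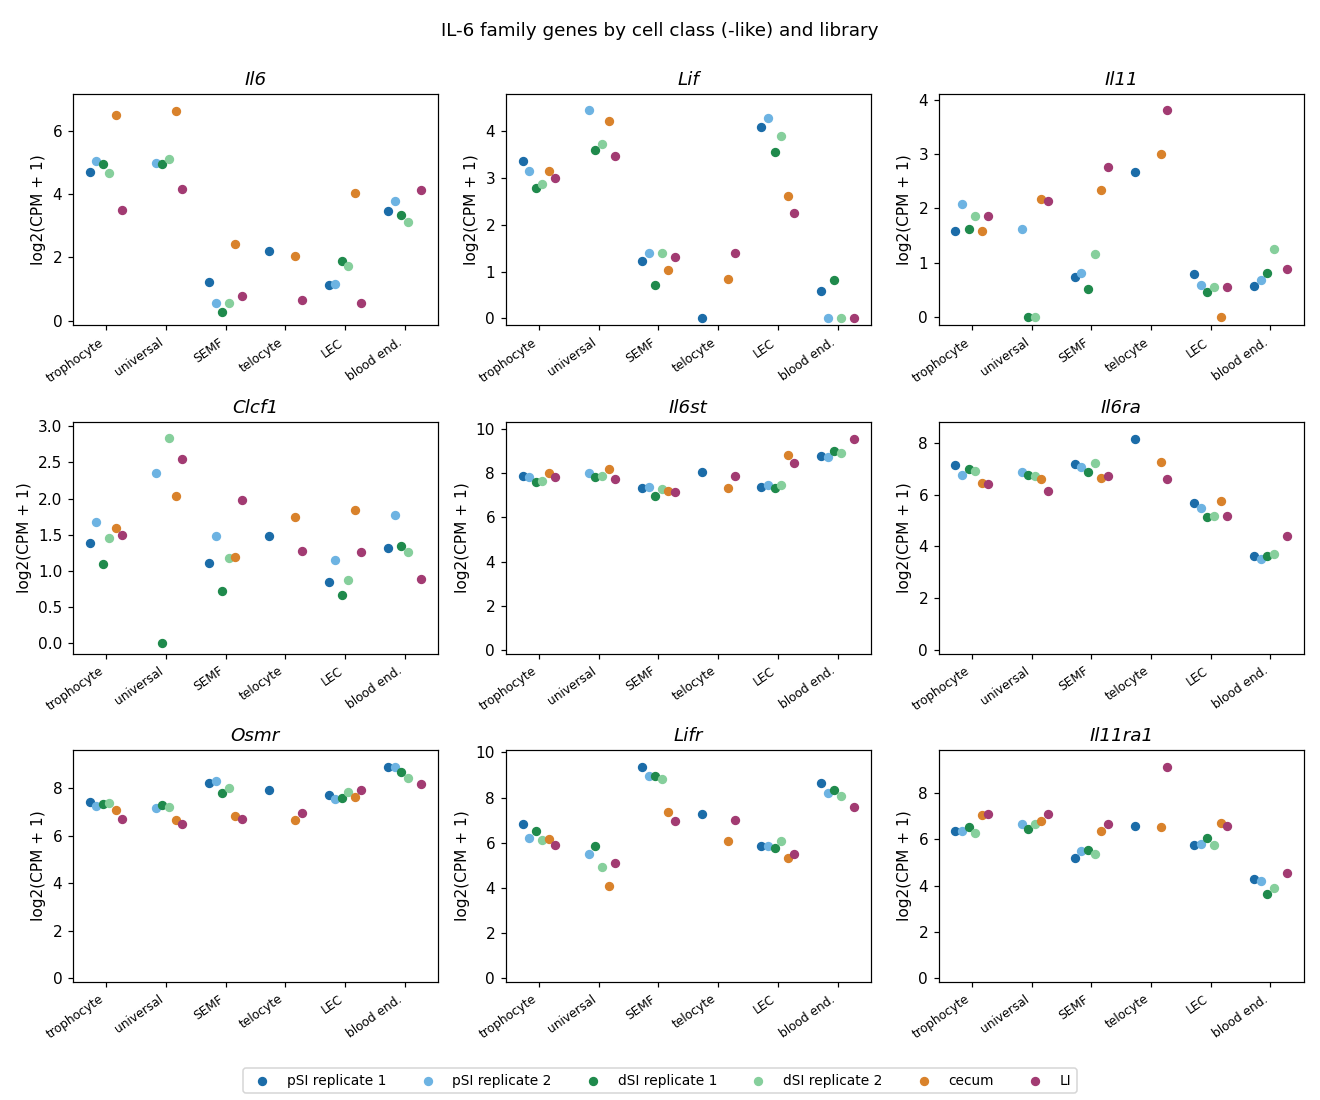
Level of each member as log2(CPM + 1), with 1 point per library and class for trophocyte-like, universal fibroblast-like, SEMF-like, telocyte-like, LEC-like and blood endothelial-like cells with at least 50 cells. Il6 is high in trophocyte-like and universal fibroblast-like cells, Lif in LEC-like and universal fibroblast-like cells, Lifr in SEMF-like cells, and Il6st and Osmr in blood endothelial-like cells, and in SEMF-like cells the cecum and LI points lie apart from the small intestine for Lifr and Il11ra1.

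The receptor subunits were counted more deeply than the ligands and were spread over the classes in different orders. Il6st, the shared gp130 chain, was detected in every stromal class. Blood endothelial-like cells held 441 and 418 CPM in pSI, 505 and 473 in dSI and 744 in LI. Of the other classes in all 4 small intestinal libraries, trophocyte-like cells followed with 213 ± 18.7 CPM, then other fibroblasts with 171 ± 6.90, LEC-like cells with 169 ± 9.004 and SEMF-like cells with 151 ± 17.3 (SD, n = 4 each), each of the last 3 overlapping the next. In 3 libraries each, universal fibroblast-like cells held 239.7 ± 17.5 CPM and Cxcl10 Ccl2 fibroblasts 231 ± 67.6, both means above that of trophocyte-like cells. Il6ra, which gives cells their own response to IL-6, was higher in most fibroblast classes than in endothelial cells, with Ptn Scg2 fibroblasts as an exception at 16.5 and 12.3 CPM in the 2 pSI libraries (31 UMIs in all). SEMF-like cells held 144, 135, 115 and 149 CPM and trophocyte-like cells 139, 109, 127 and 121, so that these 2 classes overlapped. LEC-like cells held 40.5 ± 7.71 CPM and blood endothelial-like cells 11.3 ± 0.688, without overlap with each other or with SEMF-like and trophocyte-like cells. Telocyte-like cells of pSI replicate 1, 77 in all, had 285 CPM (159 UMIs).

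Lifr and Osmr lie next to each other on chromosome 15 and shared their low level in lymphocytes (0 to 9.50 CPM in T cell, ILC and B cell-like cells) but not their order among stromal classes. Lifr was highest in SEMF-like cells of the small intestine, with 651 and 489 CPM in pSI and 493 and 447 in dSI. Blood endothelial-like cells held 320 ± 56.5 CPM, trophocyte-like cells 86.5 ± 20.4 and LEC-like cells 58.7 ± 5.46 (SD, n = 4 each), and none of these neighbors overlapped. Among the 5 classes that every small intestinal library held, Osmr was highest in blood endothelial-like cells with 427 ± 61.0 CPM. SEMF-like cells (299, 317, 224 and 261) followed and overlapped LEC-like cells (205 ± 19.5), and trophocyte-like cells held 162 ± 7.98. Cxcl10 Ccl2 fibroblasts of 3 libraries held 298 ± 52.3. In dSI replicate 2, 50 pericyte-like cells held 527 CPM (160 UMIs, interval 448 to 615) against 346 in blood endothelial-like cells. In LI, 122 pericyte-like cells held 257 against 291. Of the 5 classes ordered, trophocyte-like cells held the least Osmr, and only LEC-like cells held less Lifr.

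Il11ra1 followed another order. Trophocyte-like cells held 80.4, 81.4, 91.2 and 75.1 CPM, LEC-like cells 52.8, 53.8, 64.8 and 52.8 and SEMF-like cells 36.03, 43.5, 45.5 and 40.7, with no overlap between these 3 classes, and blood endothelial-like cells held 15.3 ± 3.19 (SD, n = 4). The telocyte-like cells of LI, in which Il11 was highest among stromal classes with over 100 Il11 UMIs, had 554 CPM of Il11ra1 (interval 542 to 566), while those of pSI replicate 1 and the cecum had 94.97 and 90.7.

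To ask which members separated fibroblasts from LECs, UMIs were summed per library and tested with edgeR's quasi-likelihood test with library as a block and Benjamini-Hochberg adjustment over all genes tested. Fibroblast-like cells of the small intestine had higher levels of 7 members and lower levels of 2, so all 9 passed, in a comparison in which 74% of all 18576 genes passed. Il6 stood at 20.4, 24.6, 27.9 and 20.5 CPM in fibroblast-like cells and differed from LEC-like cells by 3.64 ± 0.199 on the log2 scale (SE, adjusted p = 5.04e-06), or by 6.12 with free RNA subtracted. Lif (log2 difference -1.30 ± 0.132, adjusted p = 0.000119) and Osmr (-0.24 ± 0.0611, adjusted p = 0.0106) were higher in LEC-like cells. Il6ra (1.57 ± 0.111), Lifr (1.23 ± 0.109), Il11 (2.00 ± 0.2496) and Clcf1 (0.97 ± 0.181) were higher in fibroblast-like cells, Il11ra1 and Il6st by less than 0.5. The Il6st call was lost in 5 of 16 settings, and over all 6 libraries its difference was -0.16. Osmr passed in 14 of 16 settings. Among cells with at most 5 Fos, Jun and Egr1 UMIs after thinning to 2500, an alternative added after the data had been seen, the difference was 0.13 for Il6 (adjusted p = 0.827), -0.22 for Lif (adjusted p = 0.266) and -0.13 for Osmr (adjusted p = 0.134), while Il6ra, Lifr, Il11, Clcf1, Il11ra1 and Il6st passed there too. Il6 was scarce in such cells (bins below), while the free RNA of the small intestinal libraries carried 14.9 to 30.3 CPM of it. That setting was not fitted with free RNA subtracted, so the part of free RNA in its Il6 difference was not tested.

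Within the fibroblasts, SEMF-like and trophocyte-like cells were told apart by 8 members, where 55.9% of all 17181 genes passed. Il6 was lower in SEMF-like cells by 5.64 ± 0.259 on the log2 scale (SE, adjusted p = 1.19e-05, edgeR's quasi-likelihood test), Lif by 2.60 ± 0.188 (adjusted p = 6.93e-05) and Il11 by 1.85 ± 0.249 (adjusted p = 0.000995). These directions held in each of the 4 libraries. Over all 6 libraries Il11 lost its call (-0.74, adjusted p = 0.292), since in the cecum and LI SEMF-like cells held more of it than trophocyte-like cells (4.05 against 2.02 CPM and 5.75 against 2.64). With free RNA subtracted the Il6 difference was -13.37 and the Lif difference -5.07, so the size of both depends on how the low SEMF-like counts are treated. Lifr was higher in SEMF-like cells by 2.38 ± 0.0777 (adjusted p = 4.16e-06) and Osmr by 0.53 ± 0.0996 (adjusted p = 0.00419, not passed over all 6 libraries at 0.29, adjusted p = 0.189), whereas Il11ra1 (-1.20 ± 0.0662), Il6st (-0.72 ± 0.0712) and Clcf1 (-0.66 ± 0.177) were lower, the last losing its call in 7 of 16 settings. Il6ra did not pass (-0.09 ± 0.0954, adjusted p = 0.479), though it did with cells grouped by cluster (-0.31, adjusted p = 0.0208). Fos, Jun and Egr1 moved the same way as Il6, lower in SEMF-like cells by 3.57, 2.45 and 3.47. Among cells with at most 5 of these UMIs the Il6 difference was -1.65 (adjusted p = 0.00343) and the Lif difference -2.15 (adjusted p = 0.000108), so Lif kept most of its size and Il6 kept its call at a smaller size. Free RNA was not subtracted in that setting. The size of the Il6 difference rests on 1 to 14 UMIs per library in SEMF-like cells. Scaling to library totals in place of TMM factors moved the median of all genes from -0.01 to 0.21, changed the split of called genes from 4573 higher and 5035 lower to 7496 and 3412, and left every member's direction as given except that of Il6ra (0.13).

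**Figure D2:**
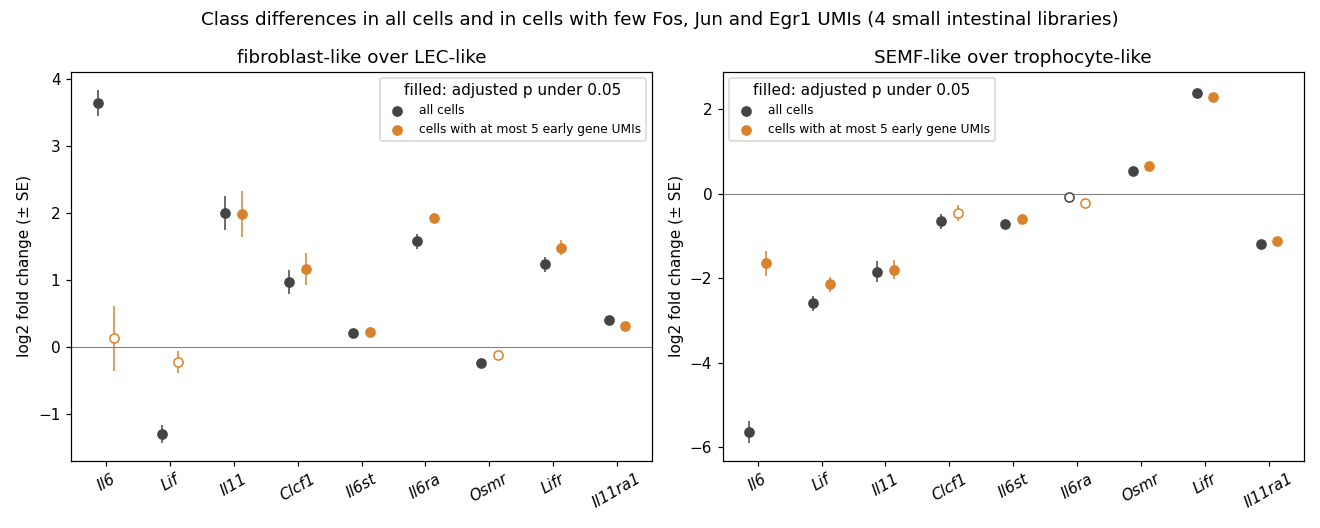
Fitted log2 differences of the 9 members (points) with their SE (bars), for fibroblast-like minus LEC-like cells and for SEMF-like minus trophocyte-like cells, in all cells and in cells with at most 5 Fos, Jun and Egr1 UMIs. The Il6 difference moves from 3.64 to 0.13 in the first comparison and from -5.64 to -1.65 in the second, while Lifr and Il11ra1 stay near their values. Il6 is scarce in cells with few early UMIs, and free RNA was not subtracted in these fits.

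Cells of each class were next divided, within each library, at the median of the Fos, Jun and Egr1 sum after thinning every cell to 2500 UMIs. In trophocyte-like cells the median was 3 or 4 UMIs in the small intestine, 27 in the cecum and 7 in LI. In LEC-like cells of the small intestine it was 2 to 8 and in SEMF-like cells 0 or 1. Cells above the median are called early-high and the others early-low. Early-high trophocyte-like cells were deeper (9156 against 8113 UMIs per cell in pSI replicate 1), and their summed levels of the fibroblast, trophocyte, universal fibroblast and Cxcl10 Ccl2 marker lists were higher in 6 of 6 libraries, with fibroblast markers at 33018 to 46422 CPM against 25467 to 32127, while SEMF and pericyte lists were lower in 6 of 6. The part of these shifts in the member results was not tested. The members were not used in the division.

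Il6 in trophocyte-like cells was found mostly in the early-high ones. Its level went from 0.762 to 46.8 CPM in pSI replicate 1, from 0.948 to 65.5 in pSI replicate 2, from 1.41 to 55.9 in dSI replicate 1 and from 1.43 to 48.8 in dSI replicate 2. In the cecum it went from 13.4 to 158 CPM and in LI from 1.62 to 19.1. Early-high values lay above early-low values in all 6 libraries, without overlap. The fitted difference was 5.18 ± 0.265 on the log2 scale (SE, adjusted p = 1.48e-06, edgeR's quasi-likelihood test with library as a block), in a comparison in which 49.1% of all genes passed. It ranged from 4.81 to 7.27 over 18 settings, the highest with free RNA subtracted. By bins of the early sum, the small intestinal mean was 1.13 CPM in cells with 0 to 2 UMIs, 1.31 at 3 to 5, 5.42 at 6 to 10, 30.3 at 11 to 20 and 112 above 20. The upper bins also held most of the UMIs: in dSI replicate 1, 3113 of 3715 trophocyte-like Il6 UMIs came from the 3567 cells above 20. Other fibroblasts reached 130 CPM above 20 (SD 54.5, n = 4), and blood endothelial-like cells 19.4 ± 6.16.

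Lif followed the early genes in LEC-like cells. It went from 5.71 to 25.9 and from 9.21 to 28.6 CPM in pSI, from 1.10 to 21.6 and from 3.44 to 24.9 in dSI, from 0 to 10.7 in the cecum (6 UMIs) and from 0.882 to 6.96 in LI. It was higher in early-high cells in 6 of 6 libraries, although the ranges over libraries overlapped, and the fitted difference was 2.34 ± 0.176 (SE, adjusted p = 5.47e-08, 36.1% of all genes passed, edgeR's quasi-likelihood test), with 2.07 to 3.66 over 18 settings. In bins, its small intestinal mean was 2.57 CPM at 0 to 2 early UMIs, 10.7 at 3 to 5, 23.7 at 6 to 10, 22.02 at 11 to 20 and 37.7 above 20. In trophocyte-like cells Lif also differed, by 1.16 ± 0.0999 (adjusted p = 2.63e-05), with a flatter course from 4.98 to 12.3 CPM over the same bins. Thus cells with 0 to 2 early UMIs held more Lif in the trophocyte-like than in the LEC-like class (3.93 to 6.22 against 1.10 to 3.28 CPM), the reverse of the order over all cells.

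**Figure D3:**
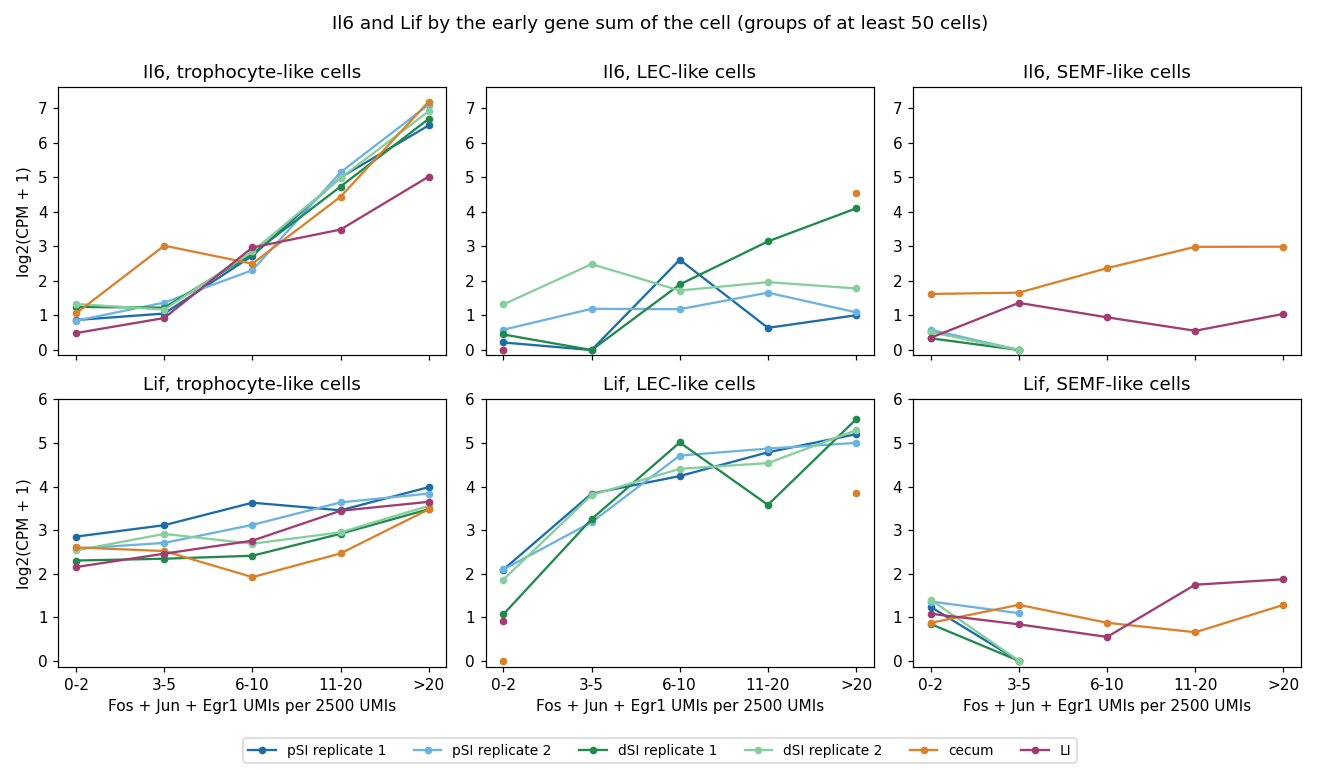
Level of Il6 and Lif as log2(CPM + 1) in trophocyte-like, LEC-like and SEMF-like cells by the sum of Fos, Jun and Egr1 UMIs per 2500 UMIs (bins 0 to 2, 3 to 5, 6 to 10, 11 to 20 and above 20), with 1 line per library and only groups of at least 50 cells. Il6 climbs from the bin of 6 to 10 early UMIs on in trophocyte-like cells, to 89.4 to 136 CPM in the small intestine, Lif climbs from the lowest bin in LEC-like cells, and Il6 in SEMF-like cells is at most 6.93 CPM, in the cecum.

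The difference between the classes was itself tested as an interaction over the 4 small intestinal libraries, in which 21.7% of all genes passed. The early-high minus early-low difference was smaller in LEC-like than in trophocyte-like cells for Il6 (-4.56 ± 0.538 on the log2 scale, SE, adjusted p = 3.83e-05, and -12.2 with free RNA subtracted) and larger for Lif (1.25 ± 0.24, adjusted p = 0.00195, edgeR's quasi-likelihood test). The early genes themselves also differed less in LEC-like cells. Of 13 listed immediate early and stress genes 10 passed, all negative, and the list's median was -1.46, against -0.01 over all genes. The part of this weaker contrast in the member results was not tested. Il6 in LEC-like cells did pass on its own (1.33 ± 0.351, adjusted p = 0.00768) at 0.633 to 5.17 CPM over the bins, but it had enough UMIs for the test in only 11 of 18 settings and not with free RNA subtracted. In early-high LEC-like cells the summed trophocyte markers were also higher in 6 of 6 libraries (286 to 543 against 233 to 505 CPM), LEC markers in 1 of 6 and blood endothelial markers in 0 of 6, and their part in the Il6 and Lif differences was not tested. In SEMF-like cells Il6, Lif, Il11 and Clcf1 had too few UMIs for the test, none of the 5 members tested passed, and 1.35% of all genes did. The contrast was not like that of the other classes. Early-high SEMF-like cells of the small intestine had a median of 1 to 3 early UMIs per library, against 12 to 19 in early-high trophocyte-like cells. In the cecum and LI the early-high SEMF-like medians were 25 and 15. Lifr was lower in early-high SEMF-like cells in 6 of 6 libraries (-0.20, adjusted p = 0.0873) and passed in 1 of 18 settings, without the filter on low counts.

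The receptors differed less than the ligands Il6 and Lif between early-high and early-low cells. The scaling matters here. With TMM factors the median log2 difference of all genes was 0.00 in trophocyte-like and 0.01 in LEC-like cells, and with library totals it was -0.15 and -0.12, with 2311 genes higher and 7275 lower in trophocyte-like cells in place of 4074 and 3948 and 1282 higher and 4257 lower in LEC-like cells in place of 2366 and 2002. Under both scalings Il6st was higher in early-high cells, in 6 of 6 libraries of each class. In trophocyte-like cells it went from 217, 211, 187 and 190 CPM to 246, 241, 202 and 208 in the small intestine, a difference of 0.34 ± 0.0529 with TMM factors (SE, adjusted p = 0.000681, edgeR's quasi-likelihood test) and 0.18 with library totals (adjusted p = 0.00622). In LEC-like cells it differed by 0.34 ± 0.0457 and 0.21. Osmr passed as well, with a difference of 0.31 and 0.15 in trophocyte-like cells (higher in 5 of 6 libraries) and of 0.29 and 0.15 in LEC-like cells (4 of 6). Il11ra1 and Clcf1 passed in trophocyte-like cells with TMM factors (0.22 and 0.42) and not with library totals (0.06 and 0.28). Il6ra went opposite ways in the classes. In trophocyte-like cells it stood at 162, 125, 144 and 135 CPM in early-low and at 119, 91.9, 111 and 106 in early-high cells of the small intestine, while the cecum (91.0 and 81.3) and LI (83.8 and 86.4) differed less, and the fit over 6 libraries did not pass with TMM factors (-0.15, adjusted p = 0.109) and did with library totals (-0.30, adjusted p = 0.00263). With TMM factors it passed without the cecum (-0.20, adjusted p = 0.0241), without LI (-0.20, adjusted p = 0.0217) and in the small intestine alone (-0.27, adjusted p = 3.68e-05). In LEC-like cells it stood at 41.7, 36.1, 32.9 and 33.8 CPM in early-low and at 58.4, 51.4, 35.1 and 35.6 in early-high cells of the small intestine, from 32.6 to 38.8 in LI and from 54.7 to 51.5 in the cecum (29 to 39 UMIs each), a fitted difference of 0.44 ± 0.0775 (adjusted p = 0.000353). The interaction for Il6ra was 0.73 ± 0.0829 (adjusted p = 2.61e-05). Lifr was lower in early-high trophocyte-like cells in 6 of 6 libraries, from 128 to 102 CPM in pSI replicate 1 and from 95.7 to 47.2 in the cecum (log2 difference -0.29 ± 0.0771, adjusted p = 0.0122, and -0.45 with library totals). Il11 did not pass in trophocyte-like cells (0.17, adjusted p = 0.147).

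**Figure D4:**
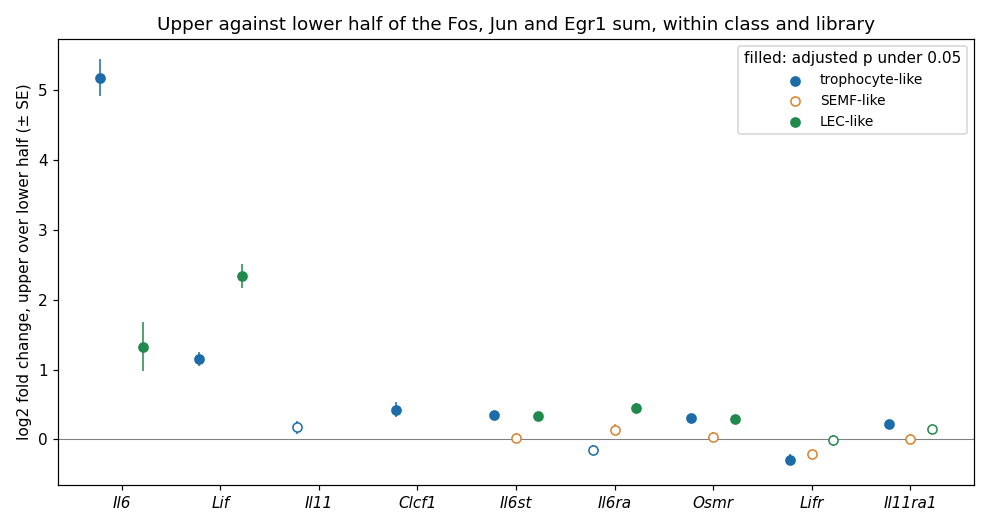
Fitted log2 differences of the members between early-high and early-low cells (points, with SE bars) in trophocyte-like, SEMF-like and LEC-like cells, with filled points for an adjusted p under 0.05. Il6 stands at 5.18 in trophocyte-like and 1.33 in LEC-like cells, Lif at 1.16 and 2.34, and the receptors lie between -0.29 and 0.44 in these 2 classes. Early-high SEMF-like cells of the small intestine have a median of only 1 to 3 early UMIs, so their contrast is weaker.

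Genes that IL-6 family signaling is known to induce moved with the early genes as well. Of 15 genes listed as STAT3-induced or acute phase genes, 12 were higher in early-high trophocyte-like cells, where 49.1% of all genes passed in either direction. In early-high LEC-like cells 12 were higher, where 36.1% of all genes passed. The list's median log2 difference was 1.39 and 0.94, against 0.00 and 0.01 over all genes. Socs3, a feedback inhibitor of gp130 signaling, differed by 3.69 in trophocyte-like and 2.56 in LEC-like cells, Junb by 3.55 and 2.56, and the neutrophil chemokine Cxcl1 by 3.99 and 1.60. In SEMF-like cells 5 of the 14 tested passed, all higher, where 1.35% of all genes passed. Socs3, Junb and Cxcl1 respond to many stimuli, and several list genes are immediate early genes themselves: of 13 listed immediate early and stress genes, 13 passed in trophocyte-like cells and 12 of 12 tested in LEC-like cells, all higher. Among 16 signaling genes, 7 were higher and 4 lower in early-high trophocyte-like cells (49.1% of all genes passed, and the list's median was 0.07), with Jak1 (1.22) and Socs1 (1.31) beside Socs3, and 9 were higher and 1 lower in LEC-like cells (36.1% of all genes passed, median 0.20), where Stat3 differed by 0.92.

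Between SEMF-like and trophocyte-like cells, 8 of 15 STAT3 or acute phase genes were lower in SEMF-like cells and 2 higher, where 55.9% of all genes passed, with Cxcl1 at -3.30, Junb at -2.88 and Myc at -2.47. Socs3 stood at -2.13 over all cells and at 0.44 among cells with at most 5 early UMIs, the opposite direction. Of the other family genes, Cntfr, the receptor subunit for ciliary neurotrophic factor and Clcf1, was higher in trophocyte-like cells, at 26.7 ± 8.57 CPM against 3.00 in SEMF-like and 1.56 in LEC-like cells (log2 difference -3.16 between SEMF-like and trophocyte-like and 3.53 between fibroblast-like and LEC-like cells). Between the latter, the acute phase genes Lcn2 (-7.14) and Lrg1 (-6.49) were higher in LEC-like cells and Saa3 (4.51) in fibroblast-like cells. Osm, the ligand for Osmr, was at most 0.312 CPM in fibroblast-like, trophocyte-like, SEMF-like, LEC-like and blood endothelial-like cells. It was 36.9 in the 50 myeloid-like cells of dSI replicate 1 (17 UMIs).

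The members were then compared along the bowel. Between dSI and pSI, with 2 libraries each, no member passed in fibroblast-like or LEC-like cells, where 0.0103% (2 of 19402) and 0% of genes passed edgeR's quasi-likelihood test, 722 and 633 had an unadjusted p under 0.05, and DESeq2 called 140 and 26. In LEC-like cells Il6 (1.00), Lif (-0.47) and Il6ra (-0.47) had an unadjusted p of 0.0173, 0.0291 and 0.00783, and no adjusted p was under 0.947.

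Between large bowel (the mean of cecum and LI) and small intestine the spread came from the pSI and dSI pairs and was assumed for the single cecum and LI libraries, which were also the only ones with many universal and telocyte-like cells. Within SEMF-like cells, compared after the data had been seen, Lifr fell from 651, 489, 493 and 447 CPM in the small intestine to 164 in the cecum and 124 in LI, a log2 difference of -1.70 (adjusted p = 0.00274, edgeR's quasi-likelihood test, 37.5% of all genes passed). Osmr fell in step, from 224 to 317 CPM down to 114 and 103 (-1.17, adjusted p = 0.00344). Il11 rose by 2.69 (adjusted p = 0.00313) and Il11ra1 by 1.27 (adjusted p = 0.00142), with 80.5 and 98.8 CPM of Il11ra1 in the cecum and LI. These are not the same clusters of cells. When the fibroblast-like cells of all 6 libraries were clustered without the members' own genes, a step added after the data had been seen, 1 cluster held 92.9 to 97.5% of the SEMF-like cells of each small intestinal library and 0 of those of the cecum and LI, whose SEMF-like cells fell into another pair (17.1 and 81.6% in the cecum, 85.6 and 14.0% in LI). A change within 1 kind of cell, a different kind of cell and a difference between libraries cannot be told apart here. For all 4 the 2 large bowel values lay outside the small intestinal range, and all 4 passed in every fit that left out 1 library. The early genes moved with them, with Jun in SEMF-like cells at 131 to 311 CPM in the small intestine, 2914 in the cecum and 1860 in LI, and their part in the SEMF-like differences was not tested. Il6 passed as well (1.80, adjusted p = 0.0437), but its call was lost without the cecum (0.48) and without some other libraries. The free RNA of the cecum carried 53.5 CPM of Il6 (217 UMIs), against 4.43 CPM in its SEMF-like cells, and the part of free RNA in this result was not tested. In trophocyte-like cells only Il11ra1 passed (0.76, adjusted p = 0.0178, 21% of all genes passed), and Lifr did not (-0.36, adjusted p = 0.30), at 69.9 and 59.4 CPM against 69.1 to 114. Trophocyte-like cells also lay in different clusters, with 48.3 and 39.99% of those of the cecum and 35.5 and 49.97% of those of LI in a pair of clusters that each held at most 0.334% of those of any small intestinal library, and the second of the pair also held the 81.6% of SEMF-like cells of the cecum. Whether Lifr and Osmr differ between these classes in their change was not tested.

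Over all fibroblast-like cells 5 members passed, Il11 (1.061 ± 0.209), Il11ra1 (0.97 ± 0.161), Il6ra (-0.50 ± 0.14), Osmr (-0.60 ± 0.118) and Lifr (-0.73 ± 0.149), where 30.5% of all genes did. Il6ra passed in 9 of 17 settings, Osmr and Lifr in 13, Il11 in 15 and Il11ra1 in 16. Without LI, Il11 (0.69, adjusted p = 0.13), Il11ra1 (0.65, adjusted p = 0.0788), Osmr (-0.48, adjusted p = 0.0863) and Il6ra (-0.43, adjusted p = 0.151) did not pass, without the cecum Lifr (-0.63, adjusted p = 0.0862) and Il6ra (-0.55, adjusted p = 0.104) did not, without pSI replicate 1 Il6ra (adjusted p = 0.254), Osmr (0.141) and Lifr (0.0906) did not, and without pSI replicate 2 Il6ra (0.102) and Osmr (0.101) did not. Il6 split the large bowel itself, at 66.1 CPM in the cecum and 6.39 in LI against 20.4 to 27.9 in the small intestine, and its difference was -0.13 over all libraries (adjusted p = 0.614), 1.60 without LI (adjusted p = 0.013) and -1.85 without the cecum (adjusted p = 0.0178). Among cells with at most 5 early UMIs, Il6 was higher by 0.92 (adjusted p = 0.0388) and Lifr no longer passed (-0.58, adjusted p = 0.051). Jun stood at 3649 CPM in the cecum and 1384 in LI against 722 to 1118, Fos at 3825 and 1278 against 921 to 1682 and Egr1 at 3815 and 1062 against 1487 to 1967, and their part in the Il6 values was not tested. In LEC-like cells 3 of 8 tested members passed (15.2% of all genes). Lif fell by 1.78 (adjusted p = 0.0126), Il6st rose by 1.22 (adjusted p = 0.00192), from 157 to 176 CPM up to 455 in the cecum and 350 in LI, and Il11ra1 rose by 0.79 (adjusted p = 0.0124). Lif did not pass without LI (-1.57, adjusted p = 0.0837) and Il11ra1 did not without the cecum (0.67, adjusted p = 0.0681). Il6 passed in no fit but the one without LI (3.11, adjusted p = 0.00897).

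**Figure D5:**
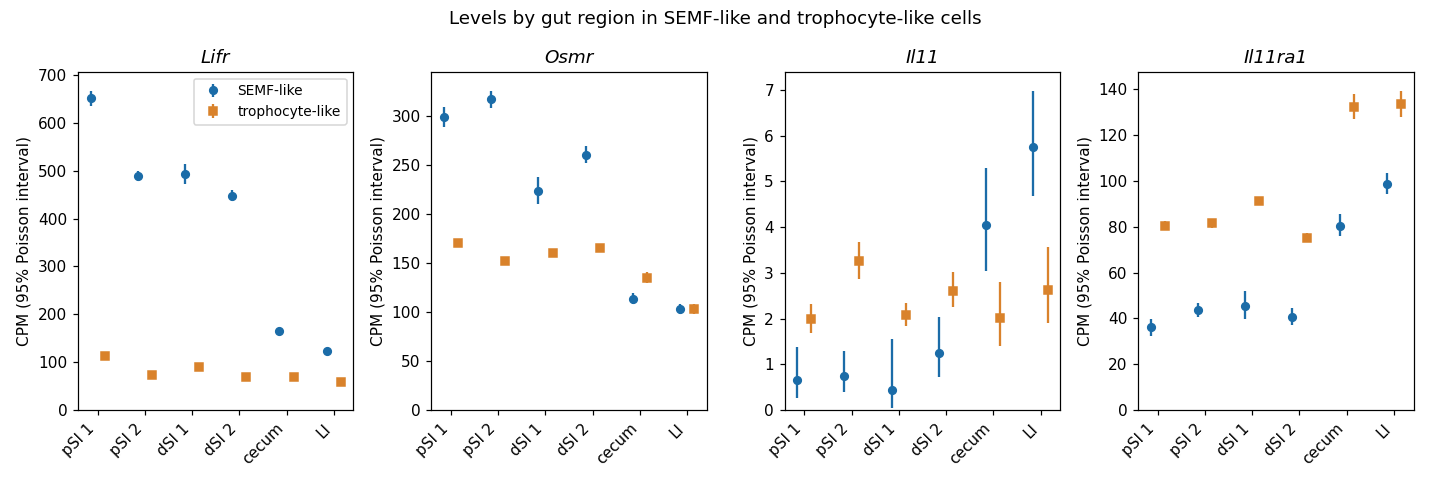
CPM of Lifr, Osmr, Il11 and Il11ra1 by library in SEMF-like and trophocyte-like cells, with exact 95% Poisson intervals for counting error. In SEMF-like cells Lifr and Osmr are lower and Il11 and Il11ra1 higher in the cecum and LI than in the 4 small intestinal libraries.

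Of the other genes in the lists, the family ligand Ctf1 (log2 difference 1.19) and the receptor subunit Il31ra (-0.99) passed between large bowel and small intestine in fibroblast-like cells. Neither passed without LI (0.90, adjusted p = 0.0605, and -0.57, adjusted p = 0.0642), Ctf1 did not within SEMF-like cells (adjusted p = 0.116) and Il31ra did not within trophocyte-like cells (adjusted p = 0.20). In the STAT3 or acute phase list of 15 genes 5 rose and 1 fell in fibroblast-like cells, where 30.5% of all genes passed, and 5 rose in LEC-like cells, where 15.2% did, among them Socs3 (1.04) and Lrg1 (1.96). Of 16 signaling genes 3 rose and 3 fell in fibroblast-like cells. Of the immediate early and stress genes 7 of 13 were higher in fibroblast-like cells (30.5% of all genes passed), with Hspb1 at 3.72.

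For each member, the genes with the most similar level were sought over 52 class-by-library sums of 14 classes, among 10155 genes with a mean of at least 10 CPM. The points share libraries and depth, so the correlations are descriptions. Il6 was most like Cxcl1 (Pearson r = 0.84), Egr1 (0.79) and Pnp (0.78), and Lif most like Flrt3 (0.87), Gas7 (0.85) and Sult5a1 (0.82). For the receptors the highest values were Ccnd1 for Osmr (0.92), P3h4 for Il11ra1 (0.92), Tsc22d1 for Lifr (0.87), Scpep1 for Il6ra (0.86) and Nfe2l1 for Il6st (0.79). The scarce ligands Il11 and Clcf1 reached 0.76 (Rbp4) and 0.75 (Ago2).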

How the data were processed

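Single-cell RNA-seq libraries were made with 10x 3' v3.1 chemistry from sorted tdTomato+ lamina propria cells. The authors processed the reads with Cell Ranger (8.1.0 in the submitters' notes and methods, 8.0.1 in the matrix headers) against mm39 with tdTomato added, and deposited raw UMI counts per gene and barcode. Whether intronic reads were counted is not given in the sources used here.

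The study's limits on cells were applied: a gene number from 1000 to 7500, a UMI total from 2500 to 40000 and less than 10% of UMIs from mitochondrial genes. The study also removed clusters with very few tdTomato+ cells, a step not applied here. Blood endothelial-like and immune cells were therefore kept. The clusters that the paper names are fibroblast subsets, myofibroblasts, LECs and pericytes, with no blood endothelial or immune cluster among them. Whether that step would remove these cells was not tested here. Doublets were called with Scrublet (scanpy 1.11.5, expected rate 0.8% per 1000 cells) and removed (4.53% to 11.3% per library). No free RNA correction was made in the values reported first, and an alternative subtracted 10% of each class's UMIs by the profile of barcodes with at most 100 UMIs. A lineage required at least 3 detected markers, 0.5 of the markers and a lead of 0.25 over the next lineage, and a fibroblast subclass 3 markers, 0.4 and 0.1. These gate limits were set after marker detection had been seen. Groups under 50 cells were left out. UMIs were summed per library and class and tested with edgeR 4.0.16 (quasi-likelihood, TMM, filterByExpr, Benjamini-Hochberg over all genes tested at 0.05, R 4.3.3), with library as a block where classes or early-high and early-low cells of the same libraries were compared. Differences are log2 values with their SE. The tests were tried on simulated counts. Exact intervals and limits cover counting error only. The precision of a level is set by its UMIs, given where they are few, and the libraries held 109675337 to 206827504 UMIs.

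The members and the lists of other genes were chosen with earlier results of these data known. Named list genes are those that passed with the largest differences, up to 3 per list and comparison. The text names some of these, and one is not reported here. Names of the most similar genes are the highest Pearson correlations of log2 CPM. Alternatives were DESeq2 1.42.0, RLE size factors, all 6 or only the small intestinal libraries, no library term, a replicate block, classes taken from clusters, no filter on low counts, free RNA subtraction, no doublet removal, a stricter gate, other divisions by early genes, each library left out and, added after the data had been seen, library totals without TMM factors, cells with at most 5 early UMIs and fits within SEMF-like or trophocyte-like cells. Fibroblast-like cells of all 6 libraries were also clustered (Leiden, scanpy, without the members' genes) to see where the SEMF-like and trophocyte-like cells of each library fell, a step added after the data had been seen.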

Additional observations from a re-analysis of the deposited data

Results flagged for a closer look

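Among groups of 4 small intestinal libraries, 5 of 54 held a library whose gap to the nearest other exceeded Dixon's 95% limit, where chance gives about 1 in 20. Of these, 4 were dSI replicate 1, with Il11ra1 at 64.8 CPM in LEC-like cells, Il6st at 125 CPM in SEMF-like cells, Lif at 9.16 CPM in other fibroblasts and Osmr at 164 CPM in fibroblast-like cells. The fifth was Clcf1 in blood endothelial-like cells of pSI replicate 2, at 2.42 CPM.

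The difference between early-high and early-low cells itself differed between LEC-like and trophocyte-like cells for 3 of 9 members, where 21.7% of all 16088 genes passed. On the log2 scale, LEC-like minus trophocyte-like, it was -4.56 for Il6, 1.25 for Lif and 0.73 for Il6ra, all called by edgeR's quasi-likelihood test of the interaction and in every fit that left out 1 library. Of 13 listed immediate early and stress genes 10 were called there as well, all negative, and their part in the member values was not tested.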

How the results depend on the processing

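Of the refitted log2 differences of members and named genes, 2478 kept their direction and side of the threshold, 109 lost their call, 15 gained one and 63 turned. Limits were the single cecum and LI libraries, the few UMIs behind the ligands in SEMF-like and LEC-like cells, and class mix in the large bowel. Levels moved by more than the spread between libraries in 30 values and by less in 285.

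Fits that left out 1 library gave 12298 to 13604 called genes and 8 to 9 members for fibroblast-like against LEC-like cells, 7899 to 8853 and 7 to 8 for SEMF-like against trophocyte-like cells, 5 to 32 and 0 to 51 genes for dSI against pSI in fibroblast-like and LEC-like cells, 2840 to 9607 and 2 to 6 members for large bowel against small intestine in fibroblast-like cells, and 814 to 4228 and 2 to 4 in LEC-like cells. For early-high against early-low cells they gave 6453 to 8669 and 7 to 8 in trophocyte-like, 59 to 197 in SEMF-like and 2799 to 4707 and 4 to 6 in LEC-like cells, and 2338 to 3066 for the interaction. The lone library left in a group was assumed to vary like the others. With no library left out, the comparisons given with a member count called 74%, 55.9%, 30.5%, 15.2%, 49.1% and 36.1% of all genes, in the same order.

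Other counts moved by over 1.5 times. Over all 6 libraries 5 members differed between SEMF-like and trophocyte-like cells in place of 8, where 7414 of 15053 genes passed. For dSI against pSI in fibroblast-like cells, 2 genes became 140 with DESeq2, 31 without a filter on low counts, 10 with library totals, 0 with free RNA subtracted and 1 without doublet removal; in LEC-like cells, 0 became 26 with DESeq2, 215 without the filter and 1 without doublet removal. The replicate numbers of the small intestine share only a number (correlation of deviations 0.358 in fibroblast-like and 0.184 in LEC-like cells over 2 pairs), and with the replicate block 470 and 308 genes were called and no member. For large bowel, 3926 genes and 1 member were called within trophocyte-like cells, and in LEC-like cells 3624 genes without the filter. In SEMF-like cells the early-high comparison gave 1189 genes and 1 member without the filter, 104 with free RNA subtracted, 476 without doublet removal and 23 with only the cells of most and fewest early UMIs (extreme cells) in place of the median division, and the interaction gave 2116 with thinned counts.

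The differences that turned were as follows, with the cause not tested, and ranges are those over fits that left out 1 library. Between fibroblast-like and LEC-like cells Il6st was -0.16 over all 6 libraries. Between SEMF-like and trophocyte-like cells Il6ra was 0.13 with library totals and ranged from -0.17 to 0.013, and Socs3 was 0.44 in cells with at most 5 early UMIs. Between dSI and pSI in fibroblast-like cells Il6 ranged from -0.16 to 0.43, Il11 from -0.23 to 0.32 (-0.034 with library totals and -0.0085 without doublet removal), Il6ra from -0.11 to 0.20 (-0.0075 with library totals) and Il11ra1 from -0.14 to 0.36. In LEC-like cells Il6st ranged from -0.14 to 0.014, Osmr from -0.055 to 0.17, Lifr from -0.12 to 0.18 and Il11ra1 from -0.047 to 0.26. For large bowel in fibroblast-like cells Il6 ranged from -1.85 without the cecum to 1.60 without LI, both called, and was 0.92 in cells with at most 5 early UMIs, 1.80 within SEMF-like and 0.20 within trophocyte-like cells. Lif ranged from -0.66 to 0.45 and was 0.017 and 0.11 within those classes, Il11 was -0.031 within trophocyte-like cells, Il6st ranged from -0.084 to 0.24 and was -0.030 in cells with at most 5 early UMIs, and Cxcl1 ranged from -0.16 without the cecum to 2.38. In LEC-like cells Il6 ranged from -1.96 without the cecum to 3.11 without LI, Il6ra from -0.26 to 0.36, Osmr from -0.092 to 0.18 and Atf3 from -0.73 without the cecum to 1.84. Between early-high and early-low SEMF-like cells Il6st ranged from -0.034 to 0.069 and was -0.028 with library totals, -0.027 with thinned counts and -0.052 in the small intestine alone. Osmr ranged from -0.030 to 0.067 and was -0.014, -0.031 and -0.058 there, and Il11ra1 ranged from -0.040 to 0.068 and was -0.052 with library totals, -0.061 with an unthinned division, -0.028 with extreme cells and -0.043 with thinned counts. In LEC-like cells Lifr ranged from -0.063 to 0.0062 and was 0.0056 with an unthinned division and 0.014 with extreme cells. In the interaction Il11 ranged from -0.10 to 0.45 and was -0.011 with an unthinned division and -0.16 with thinned counts, Clcf1 was -0.54 with thinned counts, Il6st -0.0055 with extreme cells, Il11ra1 0.0061 with thinned counts and Nr4a1 5.26 with free RNA subtracted. Osmr ranged there from -0.00031 to 0.060 and was -0.020 with an unthinned division, -0.015 with extreme cells and -0.019 with thinned counts.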
